A study of Mus musculus with 12 samples.

Results

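The genes described here are those of the mouse major histocompatibility complex (MHC): every gene whose symbol begins with H2-, the complex's name in the mouse, plus Cd74, B2m, Tap1, Tap2, Tapbp, Psmb8, Psmb9, Ciita and Nlrc5. These were 54 of 52636 genes in the deposited table, 45 by the prefix and 9 by name, and the rule used no measured value. By role, 38 were class I genes, 11 class II genes, 2 transactivators and 3 other genes that carry the prefix. Of the 54, 33 had at least 10 reads per 20 M reads in at least 3 libraries and entered the tests (23 class I, 7 class II, both transactivators and H2-Ke6). The other 21 did not, and 11 of those were listed at 0 in all 12 libraries. By gene identifier all 54 matched the GENCODE M21 annotation, which places 50 of them on chromosome 17. It lists 43 as protein-coding, 4 as polymorphic pseudogenes, 6 as unprocessed pseudogenes and 1 as a transcribed unprocessed pseudogene.

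Messenger RNA was measured by RNA sequencing of liver cells from steatotic mice: 3 wild-type (WT) mice and 3 with a knockout (KO) of PTPRK, a receptor-type tyrosine phosphatase. As the labels' protocols describe, hepatocytes were divided by fat content on a Percoll gradient and by differential centrifugation, which also served to remove dead and non-parenchymal cells. Every mouse gave 1 low-fat and 1 high-fat library, so that each genotype has 3 libraries per fraction, in 4 groups. A replicate number marks the same mouse in the fractions of a genotype, but different mice in WT and KO. All groups share the steatotic liver. Strain, age, sex, diet and the knockout allele are not given in the sources used here. Estimated depth was 15.1 to 25 M reads per library, lowest in KO high-fat replicate 3, and 3 reads correspond to 2.4 to 3.98 reads per 20 M, a floor for counting error only. Ptprk itself lay between 2174 and 2883 reads per 20 M in the 6 WT libraries and between 1117 and 1364 in the 6 KO libraries, so that its transcript was lower but present in every KO library. The hepatocyte label was checked against 10 hepatocyte markers, whose summed level was 747087 to 917319 reads per 20 M over the 12 libraries.

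MHC class I molecules are made by nearly all nucleated cells, hepatocytes included. A polymorphic heavy chain pairs with beta-2 microglobulin and presents peptides that are cut by the proteasome and carried into the endoplasmic reticulum by the TAP transporter, and CD8 T cells read these complexes. Class II molecules are made by professional antigen-presenting cells such as dendritic cells, B cells and macrophages: an alpha and a beta chain assemble with the invariant chain (Cd74), are loaded in endosomes with the help of H2-DM, and are read by CD4 T cells. NLRC5 is the transactivator of class I genes and CIITA that of class II genes, and both act through factors bound at promoter elements known as the X and Y boxes.

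The promoters of 5 members are given here (RefSeq, build GRCm38.p6). Matches to strings from the X box, the Y box and an interferon response element are marked, and no promoter holds all of them. H2-Eb1, H2-DMb1 and H2-Aa stand for class II, H2-D1 is a classical class I gene, and H2-Q10 is the class I heavy chain with the highest level per length. Each run is read 5′ to 3′ on the strand of the gene and ends just before the transcription start.
H2-Eb1, chr17:34305692-34305866, plus strand: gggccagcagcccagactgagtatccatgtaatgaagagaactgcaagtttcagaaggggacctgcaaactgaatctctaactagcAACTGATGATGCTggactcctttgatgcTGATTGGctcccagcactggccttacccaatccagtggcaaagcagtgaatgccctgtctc
H2-DMb1, chr17:34153016-34153190, plus strand: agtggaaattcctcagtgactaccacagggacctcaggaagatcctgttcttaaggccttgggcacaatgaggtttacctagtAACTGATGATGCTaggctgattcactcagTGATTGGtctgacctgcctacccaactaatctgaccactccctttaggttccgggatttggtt
H2-Aa, chr17:34287824-34287998, minus strand: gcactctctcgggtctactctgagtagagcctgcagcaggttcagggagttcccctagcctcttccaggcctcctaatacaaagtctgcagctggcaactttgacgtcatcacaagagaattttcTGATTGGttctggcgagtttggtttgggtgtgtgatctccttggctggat
H2-D1, chr17:35262919-35263093, plus strand: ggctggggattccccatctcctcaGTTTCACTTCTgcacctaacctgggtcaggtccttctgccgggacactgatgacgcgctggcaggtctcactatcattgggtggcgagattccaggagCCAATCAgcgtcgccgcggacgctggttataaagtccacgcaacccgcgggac
H2-Q10, chr17:35469914-35470088, plus strand: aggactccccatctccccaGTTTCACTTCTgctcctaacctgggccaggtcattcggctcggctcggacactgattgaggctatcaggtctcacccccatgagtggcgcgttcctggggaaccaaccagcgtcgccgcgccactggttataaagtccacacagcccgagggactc
Capitals mark exact matches, on either strand, to 3 strings that do not overlap each other here. Each string is the longest run shared by a few members' promoters, chosen after the sequences had been seen, so its presence in those genes is no finding. TGATTGG, shared by H2-Eb1, H2-DMb1 and H2-Aa, is the core of the Y box and began 61, 63 and 50 bases before their starts, and H2-D1 held its reverse complement CCAATCA. AACTGATGATGCT, shared by H2-Eb1 and H2-DMb1, lies where the X box is known in class II promoters and began 89 and 92 bases before the start. GTTTCACTTCT, shared by H2-K1, H2-D1, H2-M3 and H2-Q10, belongs to the interferon response element of class I genes and began 151 bases before the start in H2-D1 and 156 in H2-Q10.

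Promoters of 37 members were found in the RefSeq table, 28 of class I and 8 of class II. Within 250 bases before the start, the Y box string occurred in 7 of 8 class II and 17 of 28 class I genes, against 7.23% of 32851 promoters in all. The X box string occurred only in H2-Eb1 and H2-DMb1, in 0 of 28 class I genes and in 0.00609% of all promoters. The interferon string occurred in 7 of 28 class I genes (H2-K1, H2-D1, H2-M3, H2-Q4, H2-Q6, H2-Q7 and H2-Q10). It was in 0 of 8 of class II, against 0.0517% of all promoters. A member was counted once if any of its promoters matched, whereas the share in all counts single promoters. These counts include the genes from which each string was taken, so part of each was fixed in advance. For the X box string all matches were fixed in this way, and a promoter without this exact run may still hold an X box. Apart from those genes, the Y box string was in H2-DMb2, H2-Eb2, H2-Oa and H2-Ob of class II. The X box string was in no other promoter, and the interferon string was in H2-Q4, H2-Q6 and H2-Q7 of class I. Many of these genes are duplicates of each other and share sequence by descent.

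Class I transcripts dominated the MHC signal in every library. The 38 class I genes together took 0.396% to 0.475% of reads, and the 11 class II genes 0.000985% to 0.0116%. Per kilobase of exon (the mean of 12 libraries, in reads per 20 M per kb), the order of levels was B2m at 15410, H2-Q10 at 6868, H2-K1 at 6287, H2-D1 at 3988 and H2-T23 at 1512. B2m encodes the light chain that every class I molecule shares, H2-K1 and H2-D1 the classical heavy chains, H2-Q10 a secreted heavy chain known as a liver product, and H2-T23 the Qa-1 molecule that NK cell receptors read. The ranges over libraries of H2-Q10 (5733 to 8118) and H2-K1 (5608 to 6827) overlapped, whereas those of H2-K1 and H2-D1 (3497 to 4348) did not. The invariant chain Cd74 was the highest class II gene at 247.2 per kb, followed by H2-Ab1 at 51.4, H2-Eb1 at 49.21 and H2-Aa at 30.81. The peptide exchange factors H2-DMb1 (10.31 per kb) and H2-DMa (6.115 per kb) were lower again. The ranges of H2-Ab1, H2-Eb1 and H2-Aa overlapped, so their order is not separated by the spread.

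**Figure D1:**
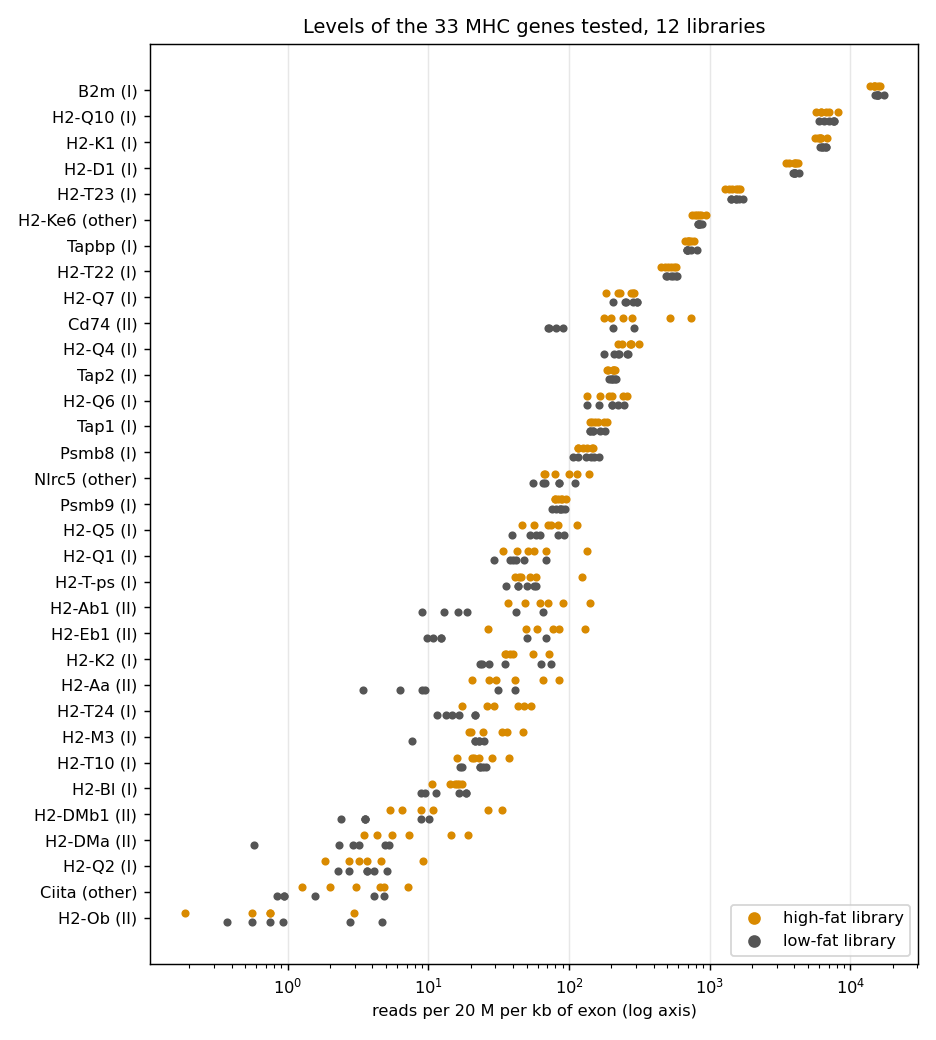
Level of each of the 33 tested MHC genes in reads per 20 M per kb of exon (log axis), one point per library, low-fat libraries in grey and high-fat in orange; I and II mark the class. B2m leads at a mean of 15410, the classical class I points of both fractions lie together, and the class II genes, led by Cd74 at 247.2, are spread widely, each with its lowest point in a low-fat library except H2-Ob.

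The first question was how class I and class II genes differ between hepatocyte fractions of high and low fat content. Classical class I genes and their loading machinery had nearly equal levels in both fractions. H2-K1 was at 19783, 18583 and 18566 reads per 20 M in WT low-fat replicates 1 to 3 and at 17358, 17910 and 17938 in WT high-fat. In KO it was at 19885, 17755 and 19102 in low-fat and 16476, 18229 and 20058 in high-fat. The fractions overlapped in KO, and in WT the 3 high-fat libraries lay just below the 3 low-fat ones. The log2 difference of high-fat against low-fat, averaged over the genotypes, was -0.13 (SE 0.087, limma adjusted p = 0.477), and the high-fat library was the higher in 2 of 6 mice.

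H2-D1 lay between 10078 and 11214 reads per 20 M in WT low-fat, 9426 and 10483 in WT high-fat, 10286 and 10363 in KO low-fat, and 9019 and 10913 in KO high-fat libraries. Its log2 difference between fractions was -0.11 (SE 0.080, limma adjusted p = 0.543). B2m was at 13592, 13376 and 13603 in WT low-fat, 12597, 11963 and 13431 in WT high-fat, 14810, 12824 and 13319 in KO low-fat, and 12806, 12754 and 13944 in KO high-fat libraries. Its groups overlapped, with a log2 difference of -0.13 (SE 0.077, limma adjusted p = 0.427). H2-Q10 lay between 26100 and 33180 in low-fat and between 24929 and 35296 in high-fat libraries, with a log2 difference of -0.14 (SE 0.121, limma adjusted p = 0.587).

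The peptide supply genes stood equally level. Tap1 and Tap2 encode the peptide transporter, Tapbp the tapasin that tethers it to the heavy chain, and Psmb8 and Psmb9 the inducible proteasome subunits. Tap1 was at 767, 987 and 806 reads per 20 M in WT low-fat, 774, 975 and 876 in WT high-fat, 911, 773 and 809 in KO low-fat, and 1015, 793 and 835 in KO high-fat libraries. Its value followed the mouse more than the fraction: the SD over 6 mouse means was 0.142 on the log2 scale, and the SD over the 6 fraction differences 0.048. Tap2 ranged from 709 to 817, Tapbp from 2428 to 2931, Psmb8 from 363 to 552 and Psmb9 from 275 to 348 over all 12 libraries. The 6 log2 differences of B2m and these 5 genes lay between -0.13 and 0.004, none of them past the threshold in limma, the smallest adjusted p being 0.427 for B2m.

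Class Ib heavy chains, the less polymorphic relatives of H2-K1 and H2-D1, gave log2 fraction differences between -0.17 and 0.99 over 15 tested genes. The annotation lists H2-Q5, H2-T10, H2-Bl, H2-K2 and H2-T-ps among these as pseudogenes. H2-T24, a class Ib gene of the T region, was the exception among the 15. It was at 36, 47 and 32 reads per 20 M in WT low-fat replicates 1 to 3 and 105, 95 and 64 in WT high-fat. In KO it was at 29, 47 and 25 in low-fat and 118, 57 and 38 in high-fat. The high-fat library was the higher in 6 of 6 mice, which held for 1 of 33 members and 9.96% of all genes tested. WT fractions did not overlap, and KO fractions did, since KO high-fat replicate 3 lay below KO low-fat replicate 2. H2-T24 rose by 0.99 on the log2 scale (SE 0.248, limma adjusted p = 0.0399), and with a term for each mouse the limma adjusted p was 0.0237.

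The call of H2-T24 rests on all libraries together. It was lost without any 1 of 9 libraries (WT low-fat replicate 1, 2 or 3, WT high-fat replicate 1 or 2, KO low-fat replicate 1 or 3, or KO high-fat replicate 1 or 2), where the limma adjusted p was between 0.0585 and 0.0991 and the log2 difference between 0.80 and 1.04. It was also lost without the filter on low values (limma adjusted p = 0.0561). H2-M3, which presents formylated peptides, was at 36, 33 and 31 in WT low-fat, 68, 48 and 28 in WT high-fat, 11, 31 and 33 in KO low-fat, and 52, 29 and 35 in KO high-fat libraries. Its groups overlapped, and the log2 difference was 0.50 (SE 0.280, limma adjusted p = 0.387).

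In all, 1 of 23 tested class I genes passed the threshold in this comparison, and 1 of all 33 members, H2-T24. Over all 16563 genes tested the share was 5.77%, with 836 genes higher and 120 lower in high-fat libraries. The members' share was therefore not above that of genes at large. The median log2 difference was -0.03 for class I and -0.02 for all genes tested.

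Class II genes had a larger and much less even difference. The invariant chain Cd74 was at 152, 346 and 120 reads per 20 M in WT low-fat replicates 1 to 3 and at 1234, 407 and 336 in WT high-fat. In KO it was at 121, 486 and 136 in low-fat and 879, 468 and 296 in high-fat. Replicate 1 of each genotype had the highest high-fat value, replicate 2 was already high in the low-fat fraction, and the fractions overlapped. The log2 difference was 1.38 (SE 0.431, limma adjusted p = 0.0982), and the high-fat library was the higher in 5 of 6 mice.

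H2-Aa, the alpha chain of the I-A molecule, was at 36, 118 and 34 in WT low-fat, 320, 115 and 103 in WT high-fat, 13, 158 and 24 in KO low-fat, and 250, 156 and 77 in KO high-fat libraries. H2-Ab1, its beta chain, was at 48, 108 and 42 in WT low-fat, 365, 183 and 125 in WT high-fat, 23, 168 and 33 in KO low-fat, and 233, 161 and 95 in KO high-fat libraries. H2-Eb1, the beta chain of I-E, was at 24, 97 and 24 in WT low-fat, 252, 149 and 96 in WT high-fat, 21, 134 and 19 in KO low-fat, and 165, 115 and 52 in KO high-fat libraries. All 3 chains showed the order seen for Cd74: low-fat replicate 2 of each genotype lay among the high-fat values, and only H2-Ab1 kept its WT fractions apart.

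None of the 3 chains passed the threshold without the mouse term. The log2 difference was 1.66 for H2-Aa (SE 0.561, limma adjusted p = 0.128), 1.58 for H2-Ab1 (SE 0.452, limma adjusted p = 0.0705) and 1.59 for H2-Eb1 (SE 0.512, limma adjusted p = 0.111). With a term for each mouse, H2-Ab1 (SE 0.391, limma adjusted p = 0.0407) and H2-Eb1 (SE 0.408, limma adjusted p = 0.0457) were called. Cd74 (limma adjusted p = 0.0608) and H2-Aa (limma adjusted p = 0.0786) were not. In that fit 3 of 33 members were called, where 11% of all genes tested were.

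KO low-fat replicate 2 weighed most on these tests. Without KO low-fat replicate 2, limma called 5 members with no mouse term: H2-T24, Cd74 at 1.69 (adjusted p = 0.0279), H2-Aa at 2.15 (adjusted p = 0.0149), H2-Ab1 at 1.99 (adjusted p = 0.00863) and H2-Eb1 at 2.01 (adjusted p = 0.0167), all log2 differences, and 1101 genes in all. Without all 4 libraries of replicate 2, chosen after the data had been seen, 0 members and 0 genes in all were called, while the log2 differences were 2.03 for Cd74 (limma adjusted p = 0.108), 2.50 for H2-Aa, 2.20 for H2-Ab1 and 2.28 for H2-Eb1 (limma adjusted p = 0.0966 for each of these 3). Without all 4 libraries of replicate 1, 0 members and 362 genes were called, and the differences were 0.69 for Cd74, 0.78 for H2-Aa, 0.93 for H2-Ab1 and 0.92 for H2-Eb1 (limma adjusted p between 0.671 and 0.82).

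**Figure D2:**
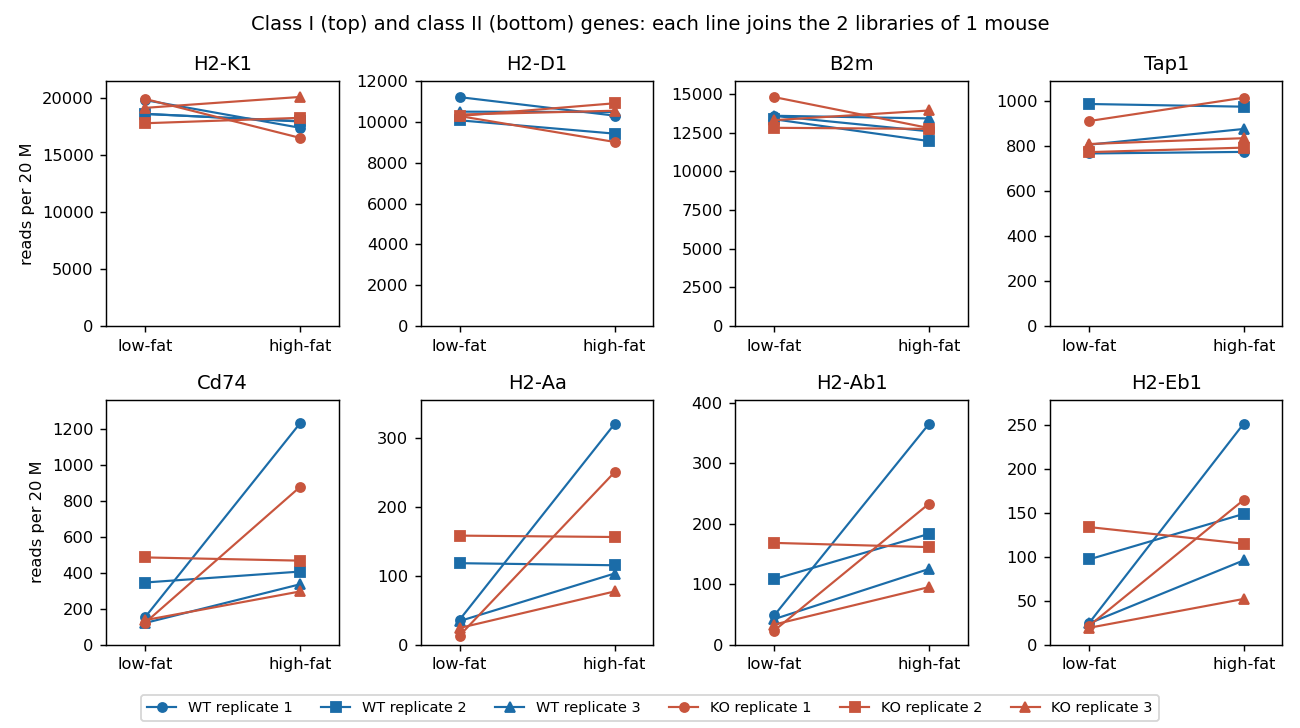
Reads per 20 M of 4 class I genes (top) and 4 class II genes (bottom) in the low-fat and high-fat library of each mouse, joined by a line; blue is WT, red is KO, and the marker gives the replicate. Lines of the class I genes run flat, while Cd74, H2-Aa, H2-Ab1 and H2-Eb1 climb steeply in replicate 1 of both genotypes and less in replicate 3. In replicate 2 they climb less again in WT, except H2-Aa, which falls slightly, and all fall in KO.

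The class II loading genes repeated this order at lower levels. H2-DMa and H2-DMb1 form the factor that exchanges the invariant chain fragment for peptide. H2-DMa was at 11, 18 and 8 in WT low-fat, 66, 25 and 12 in WT high-fat, 2, 17 and 10 in KO low-fat, and 50, 15 and 19 in KO high-fat libraries. H2-DMb1 was at 6, 15 and 4 in WT low-fat, 56, 18 and 9 in WT high-fat, 6, 17 and 6 in KO low-fat, and 45, 15 and 11 in KO high-fat libraries. Their groups overlapped, and the log2 differences were 1.23 (SE 0.471, limma adjusted p = 0.184) and 1.13 (SE 0.465, limma adjusted p = 0.219).

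H2-Ob, a chain of the H2-O inhibitor of H2-DM that B cells are known for, had its own pattern. It was at 3, 15 and 2 in WT low-fat, 16, 3 and 4 in WT high-fat, 4, 25 and 5 in KO low-fat, and 4, 1 and 0 in KO high-fat libraries, near or under the 3-read floor in many of them. Its highest values were in KO low-fat replicate 2, WT high-fat replicate 1 and WT low-fat replicate 2, and its log2 difference was -0.76 (SE 0.534, limma adjusted p = 0.507). By genotype it was 0.19 in WT (SE 0.756) and -1.71 in KO (SE 0.756, limma adjusted p = 0.526), and the interaction was -1.90 (SE 1.07, limma adjusted p = 1). H2-DMb2 (1 to 17), H2-Oa (0 to 3) and H2-Eb2 (0 to 3) did not enter the test, and H2-Ea-ps was listed at 0 in all 12 libraries.

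By class, 6 of 7 tested class II genes had a positive log2 difference, with a median of 1.38, against 7479 of 16563 genes in all. In limma 0 of 7 passed the threshold, where 5.77% of all genes tested did. An unadjusted limma p under 0.05 was found for 6 of 7 class II genes, 1 of 23 class I genes and 3037 genes in all. The class II median was 1.48 in WT and 1.28 in KO, and the class I median -0.05 and -0.02. Within WT alone limma called 0 of 33 members and 0 genes in all (0%), with 4 members and 1847 genes at an unadjusted p under 0.05, and with the mouse term 0 members and 0 genes. Within KO alone it called 0 of 33 members, where 0.839% of all genes were called, with 4 members and 1484 genes at an unadjusted p under 0.05. With the mouse term it called 0 members and 1.7% of all genes. The interaction of genotype and fraction was called for 0 members and 0 genes (0%), with 0 members and 24 genes at an unadjusted p under 0.05.

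Class I and class II differed by mouse. The median log2 difference of high-fat against low-fat over the 7 class II genes was 2.78, 0.28 and 1.36 in WT mice 1 to 3 and 2.70, -0.17 and 1.13 in KO mice 1 to 3 (mean 1.35, SD 1.22, n = 6). Over the 23 class I genes it was -0.16, 0.03 and -0.04 in WT and -0.21, 0.03 and 0.09 in KO (mean -0.05, SD 0.118, n = 6). The class II median exceeded the class I median in 5 of 6 mice, with KO replicate 2 the exception at -0.20. Mice with the same number had similar class II medians in WT and KO, although the labels give them as different mice, so the 6 may not be independent. The summed class II level was 8.12, 1.24 and 2.92 times as high in the high-fat as in the low-fat library of WT mice 1 to 3. In KO it was 8.3, 0.908 and 2.37 times as high. For the class I sum these ratios lay between 0.854 and 1.05.

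**Figure D3:**
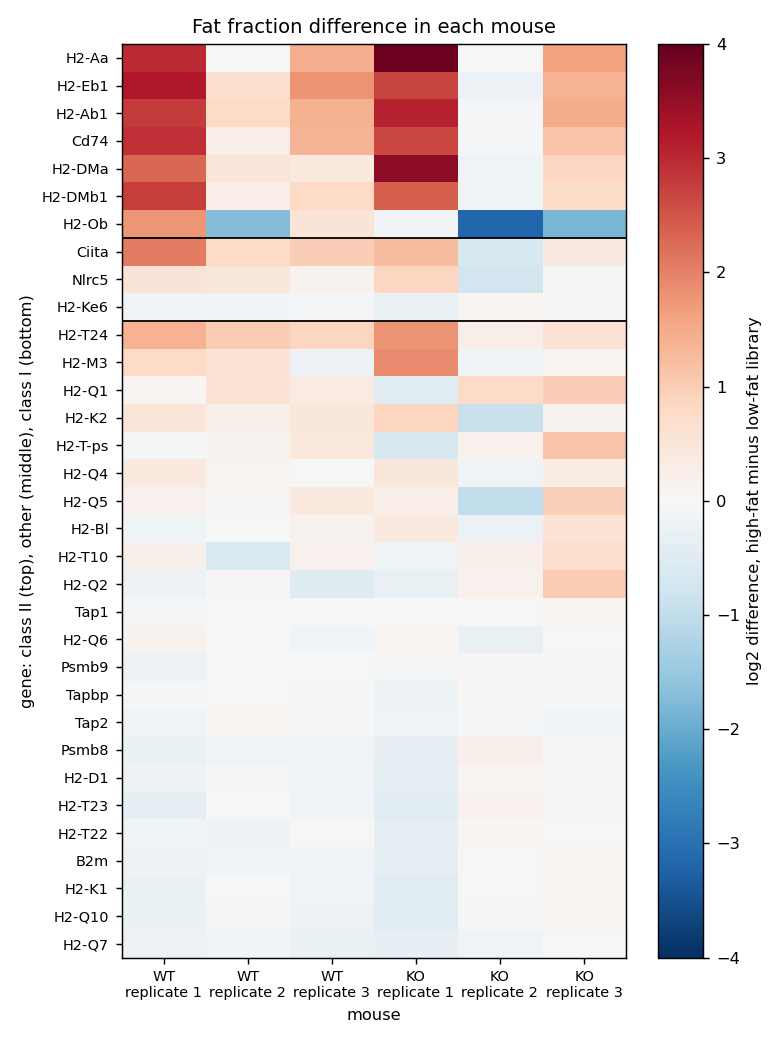
Log2 difference of the high-fat against the low-fat library of each mouse (columns, by genotype and replicate) for the 33 tested MHC genes (rows), with class II on top, the transactivators and H2-Ke6 in the middle and class I at the bottom; red is higher in high-fat. Replicate 1 of both genotypes is red over 6 of 7 class II genes, with H2-Ob near 0 in KO, replicate 2 is paler over those 6 and blue for H2-Ob, and of the class I genes H2-T24 is red in all 6 mice.

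H2-T24 followed the class II genes across libraries, a likeness noticed after the values had been seen. In 7 members (Cd74, H2-Aa, H2-Ab1, H2-Eb1, H2-DMa, H2-DMb1 and H2-T24) the low-fat libraries of replicates 1 and 3 of both genotypes lay below the other 8 libraries, which is 21.2% of 33 against 2.92% of all genes tested. In these 7 and H2-M3 the high-fat libraries of replicate 1 were the 2 highest of 12, which is 24.2% against 14.7% of all genes. Low-fat replicate 2 of both genotypes lay above the other 4 low-fat libraries in 14 members, 42.4% against 20.7%. Those 14 included Ciita, Nlrc5, H2-Ob and 4 further class I genes (H2-K2, H2-Q4, H2-Q5 and H2-T10) besides the 7.

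The transactivators were measured in the same libraries. Ciita was at 9, 39 and 8 in WT low-fat, 46, 68 and 19 in WT high-fat, 15, 46 and 9 in KO low-fat, and 43, 29 and 12 in KO high-fat libraries. Low-fat replicates 1 and 3 were among its lowest values in both genotypes, the groups overlapped, and the log2 difference was 0.80 (SE 0.486, limma adjusted p = 0.43). Nlrc5 was at 557, 727 and 473 in WT low-fat, 849, 975 and 560 in WT high-fat, 576, 941 and 717 in KO low-fat, and 1180, 572 and 678 in KO high-fat libraries. It was higher in the high-fat library of all 3 WT mice and of 1 KO mouse, with a log2 difference of 0.20 (SE 0.188, limma adjusted p = 0.639). Per kb, Nlrc5 stood at 86.39 and Ciita at 2.998.

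Markers of other liver cells were also higher in high-fat libraries. The summed level of 12 Kupffer cell and macrophage markers was 1172, 1494 and 734 reads per 20 M in WT low-fat, 13195, 2719 and 2614 in WT high-fat, 523, 842 and 755 in KO low-fat, and 11252, 2688 and 2374 in KO high-fat libraries. The 6 high-fat sums lay above the 6 low-fat sums, limma called 10 of 12 of these genes higher in high-fat libraries, and the highest sums were in high-fat replicate 1 of each genotype, as for class II. In replicate 2 these sums were higher in high-fat in both genotypes, whereas the class II sum was 1.24 times as high in WT and 0.908 times in KO. Clec4f, which is specific to Kupffer cells, was at 65 to 285 in low-fat and 459 to 2955 in high-fat libraries. Sinusoidal endothelial markers (1122 to 2721 against 4639 to 14990) and stellate markers (199 to 905 against 2721 to 5198) were also higher in every high-fat library, and 10 of 10 of each list were called. Of all genes tested, 5.77% were called in this comparison.

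The 10 dendritic cell markers summed to 110, 215 and 94 in WT low-fat, 424, 267 and 167 in WT high-fat, 84, 225 and 113 in KO low-fat, and 329, 207 and 167 in KO high-fat libraries, so that the 4 lowest values were again low-fat replicates 1 and 3 and the 2 highest high-fat replicate 1. Most of these sums came from Zbtb46 alone, at 73 to 137 in low-fat and 113 to 225 in high-fat libraries. Only 3 of the 10 dendritic cell markers had enough reads to be tested, and 0 of them were called. Flt3 and Cd209a did not exceed 12 and 5 reads per 20 M. B cell markers were highest in low-fat replicate 2 of each genotype, at 234 in WT and 342 in KO against 14 to 178 in the other 10 libraries. Monocyte and neutrophil markers were at 226 in KO low-fat replicate 2 and 177 in WT high-fat replicate 1, and at 14 to 102 elsewhere. T and NK cell markers summed to 30 to 145 and biliary markers to 594 to 977 over all 12 libraries. The part of these cells in the class II and H2-T24 differences was not tested. In bulk RNA, fewer cells of a type and less RNA per cell cannot be told apart.

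**Figure D4:**
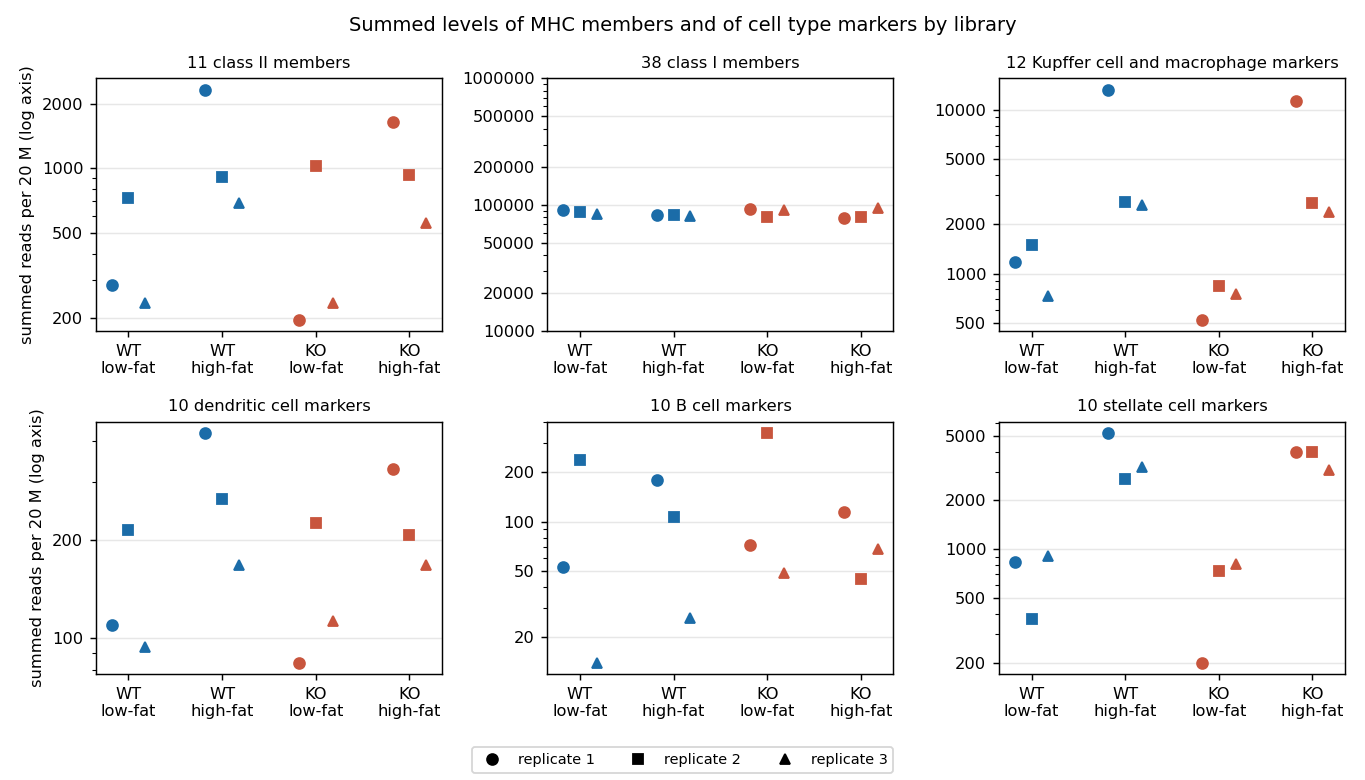
Summed level of MHC class II and class I members and of 4 marker lists in each library (reads per 20 M, log axes with different ranges), by group, with the marker giving the replicate. The class II sums run from 197 to 2314 and, like the dendritic cell sums, are lowest in low-fat replicates 1 and 3, whereas the class I sums stay between 79161 and 95125. Most of the dendritic cell sums is Zbtb46.

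Other genes of the antigen presentation pathway were counted from lists, beside a share of 5.77% called between fractions over all genes tested. Of 12 other genes listed under the class I pathway (among them proteasome activators, chaperones and peptidases), 0 were called between fractions. Their log2 differences were -0.21 to 0.03. Of 9 class II pathway genes measured, 2 rose: Ctss, the cathepsin that degrades the invariant chain, by 1.90 (SE 0.489, limma adjusted p = 0.044), and Slc11a1, a phagosomal metal transporter of macrophages, by 2.04 (SE 0.485, limma adjusted p = 0.0303). Ctss was at 63, 119 and 44 in WT low-fat, 643, 140 and 127 in WT high-fat, 23, 83 and 37 in KO low-fat, and 517, 136 and 117 in KO high-fat libraries. In each genotype its 3 high-fat values lay above its 3 low-fat values, which H2-Aa did not show. With the mouse term Lgmn, an endosomal protease, was called too (0.89, limma adjusted p = 0.0259). The endosomal proteases Ctsb, Ctsd and Ctsl, which hepatocytes also make, had log2 differences of -0.09, -0.002 and -0.18 and were not called.

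Of 20 control genes (among them interferon receptors, interferon regulatory factors, and RFX and NF-Y subunits), 0 were called, where 5.77% of all genes tested were. Rfx5, a subunit of the X box complex, had a log2 difference of -0.11 (SE 0.136), and Nfya, a Y box subunit, 0.005 (SE 0.115). Irf8, a factor of dendritic cells, monocytes and B cells, was at 1.01 (SE 0.421, limma adjusted p = 0.224). With the mouse term, Irf2 (-0.29, limma adjusted p = 0.00696), Rfxank (-0.20, limma adjusted p = 0.0267) and Psme3 of the class I list (-0.17, limma adjusted p = 0.0459) fell in high-fat libraries.

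The second question was whether any MHC gene differs between KO and WT mice as polymorphic genes of different strains would, present in one genotype and absent or steadily shifted in the other. No member passed the test. In the low-fat fraction limma called 0 of 33 members, where 0.00604% of all genes (1 gene) were called, with 0 members and 285 genes at an unadjusted p under 0.05. In the high-fat fraction it called 0 of 33 members, where 0.00604% of all genes were called, with 1 member, H2-T10, and 334 genes at an unadjusted p under 0.05. After the rescaling used for the tests, the 6 KO and 6 WT libraries were apart for 0 of 33 members, where 0.302% of all genes tested were. On the deposited values, a setting examined per fraction after the data had been seen, they were apart for 1 of 33, Tapbp, where 0.248% were. Tapbp was at 2511, 2502 and 2492 reads per 20 M in WT low-fat, 2545, 2428 and 2536 in WT high-fat, 2686, 2562 and 2931 in KO low-fat, and 2607, 2664 and 2807 in KO high-fat libraries. All 6 KO values lay above all 6 WT values before rescaling and overlapped with them after it. Its log2 difference of KO against WT was 0.13 in low-fat (SE 0.0895, limma adjusted p = 1) and 0.11 in high-fat (SE 0.0895, limma adjusted p = 1).

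Among members averaging 20 reads per 20 M or more, the largest positive KO differences were in 3 class Ib genes of the T region. H2-T22, a ligand of some gamma delta T cells, was at 1710, 1820 and 1684 reads per 20 M in WT low-fat and 1631, 1527 and 1813 in WT high-fat libraries. In KO it was at 1992, 1864 and 1966 in low-fat and 1733, 1967 and 1919 in high-fat. The 3 KO low-fat libraries lay above the 3 WT low-fat ones, the high-fat libraries overlapped, and the log2 difference of KO against WT in high-fat was 0.18 (SE 0.098, limma adjusted p = 1).

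H2-T10 is a close relative of H2-T22 and is annotated as a polymorphic pseudogene. It was at 57, 88 and 59 in WT low-fat, 70, 55 and 72 in WT high-fat, 80, 84 and 80 in KO low-fat, and 79, 97 and 129 in KO high-fat libraries. The 3 KO high-fat libraries lay above the 3 WT ones and the low-fat libraries overlapped. The log2 difference in high-fat was 0.60 (SE 0.224, limma unadjusted p = 0.0207, adjusted p = 1). H2-T-ps, annotated as a pseudogene, was at 46, 46 and 38 in WT low-fat, 47, 49 and 56 in WT high-fat, 62, 54 and 60 in KO low-fat, and 44, 62 and 133 in KO high-fat libraries. Its low-fat libraries were apart and its high-fat libraries overlapped, with KO high-fat replicate 3 at 133. Its log2 difference of KO against WT was 0.43 in low-fat and 0.49 in high-fat, and without KO high-fat replicate 3 the latter was 0.021 (limma adjusted p = 1 for each).

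Averaged over the fractions of each mouse, the 3 KO means lay above the 3 WT means for H2-T-ps (0.46 higher on the log2 scale, with KO mice at 5.74, 5.88 and 6.56 and WT mice from 5.58 to 5.63), H2-T10 (0.44) and H2-T22 (0.18). A two-sided exact permutation test over mice gave p = 0.1 for each, the smallest that 3 against 3 allows. Such separation of mouse means was found for 9.09% of the members and for 6.38% of all genes tested, so the members' share was near the background. The largest differences the other way were -0.38 for H2-M3, -0.33 for H2-DMa and -0.31 for H2-Ab1, with overlapping mice (exact permutation p = 0.2, 0.5 and 0.6). Leaving out 1 library turned directions within a fraction: without WT high-fat replicate 1 the high-fat differences were 0.018, 0.43 and 0.0020, and without KO low-fat replicate 1 the low-fat differences of H2-DMa and H2-Ab1 were 0.13 and 0.30. Within single fractions, 3 members lay higher without overlap in KO low-fat on the deposited values (H2-T22, H2-T-ps and Tapbp; background 2%) and 2 in KO high-fat (H2-T10 and Tapbp; background 2.02%). None lay lower without overlap in KO low-fat (background 2.97%) or in KO high-fat (background 2.49%). Tapbp was the 1 member apart in the same direction in both fractions (background 0.7%). After rescaling Tapbp was apart in neither, H2-T22 and H2-T-ps were apart in low-fat (background 2.43%), H2-T10 in high-fat (background 2.13%), and Tap2 lay lower in KO high-fat (background 3.07%), which its deposited values, at 777, 773 and 809 in WT and 795, 709 and 713 in KO, did not show. No member was then apart in both fractions (background 0.894%).

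**Figure D5:**
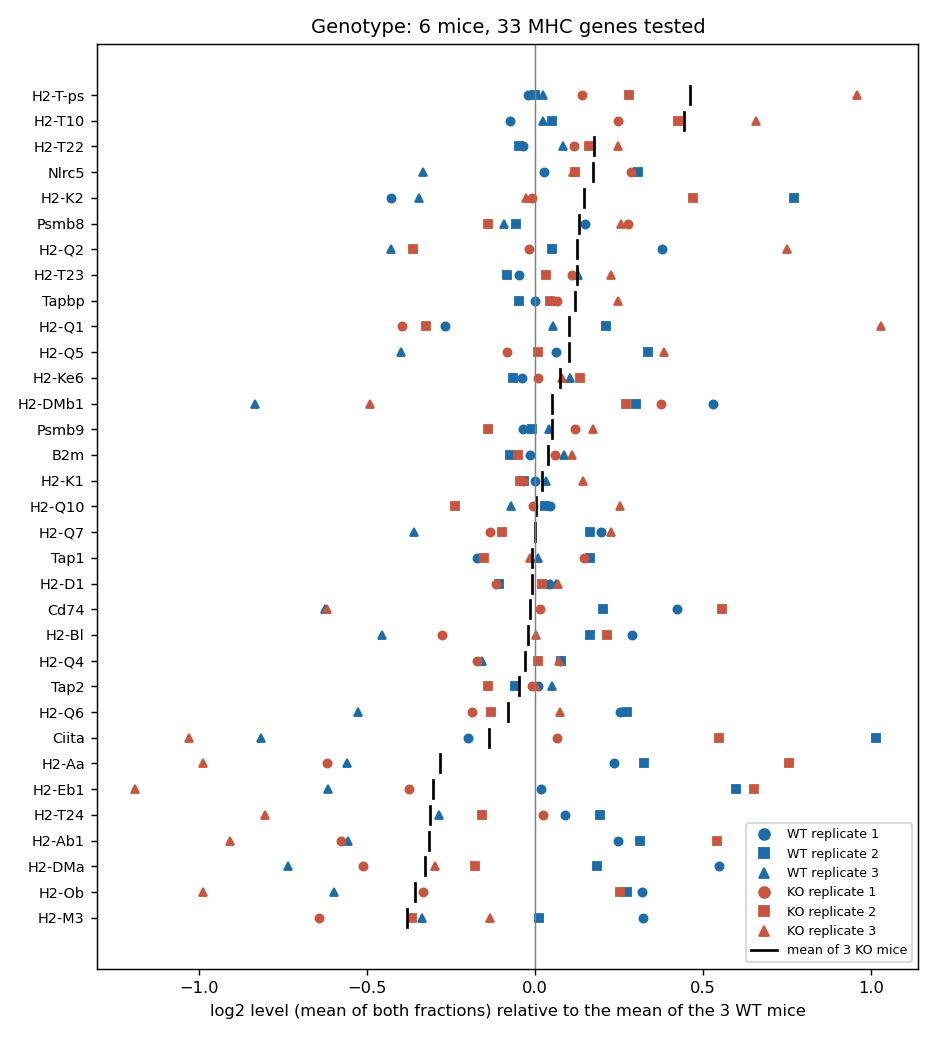
Log2 level of each tested MHC gene in each mouse (mean of its 2 libraries), relative to the mean of the 3 WT mice; blue is WT, red is KO, the marker gives the replicate and the black bar the mean of the KO mice. The KO points lie to the right of the WT points for H2-T-ps, H2-T10 and H2-T22 and overlap with them for the other 30 genes.

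Mice of the same genotype also differed from each other. H2-Q6 and H2-Q7, a near-identical pair whose product is Qa-2, were lowest in WT replicate 3 in both fractions: H2-Q7 was at 871 and 780 there against 1175 to 1308 in the other 4 WT libraries and 951 to 1231 in the 6 KO libraries. H2-Q6 was at 280 and 278 there, against 462 to 540 in the other WT libraries and 339 to 424 in KO. H2-Q1 was at 195 and 386 in KO replicate 3 and at 84 to 196 in the other 10 libraries. The log2 SD between mice of a genotype was 0.260 for H2-Q7, 0.337 for H2-Q6 and 0.594 for H2-Q1, and 0.079 for H2-K1 and 0.095 for H2-D1. After rescaling, KO high-fat replicate 3 held the highest value for 7 of 23 class I genes, H2-Q1, H2-T10, H2-T-ps and H2-K1 among them. This library had the lowest depth, and a link to depth was not tested. The share over all genes tested was not counted. How reads shared by near-identical Q and T genes were assigned, and whether strand was used, is not given in the sources used here, so levels of single Q and T genes are uncertain.

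Genes known to vary between common laboratory strains were also compared. H2-Ea-ps, named for the alpha chain gene of I-E that is silent in mice of the b haplotype, was listed at 0 in all 12 libraries. Nnt, which carries a deletion in C57BL/6J mice, lay between 3741 and 5027 reads per 20 M in WT and between 4197 and 5363 in KO libraries, so that it was expressed in both genotypes. Wdfy1 lay between 670 and 815 in WT and between 688 and 832 in KO libraries. The classical heavy chains, which differ in sequence between haplotypes, had overlapping levels in KO and WT (H2-K1 17358 to 19783 in WT and 16476 to 20058 in KO; H2-D1 9426 to 11214 and 9019 to 10913). Expression levels alone do not show which alleles were present.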

How the data were processed

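PolyA RNA of 12 libraries was sequenced, and the submitters' processing notes name the mouse build mm9; aligner, read counter, annotation and strandedness are not given in the sources used here. The deposited values are a score: gene read counts that the authors scaled to 20 M per library and rounded up, as read from the values, because all columns total 20.01 M and regular gaps occur among low values. These gaps gave the estimated depth. Columns were matched to samples by name, and groups follow the labels.

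Values were rescaled by the trimmed mean of M values (30% and 5% trimmed, own implementation) and taken as log2(value + 2), which understates changes of low genes. The tests covered 16563 of 52636 genes, those that reached 10 in 3 or more libraries. limma 3.58.1 in R 4.3.3 fitted 4 group means over 12 libraries with an intensity trend; p-values were two-sided, adjusted by Benjamini-Hochberg over all genes tested, and called under 0.05, in 6 comparisons. The fit was tested on simulated data. Exon lengths came from GENCODE M21 by gene identifier, and promoters from RefSeq.

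Libraries of 1 genotype with the same number carry the name of 1 mouse in the labels, and their deviations from the group means correlated with r = 0.498, 0.469 and 0.582 in WT and 0.044, -0.009 and 0.46 in KO. Between WT and KO, libraries with the same number, from different mice, correlated with r = 0.251, 0.396 and 0.296 in low-fat and 0.49, -0.171 and 0.381 in high-fat. A second fit held a term for each mouse (for KO against WT, for each replicate number). Further alternatives changed the pseudocount, filter, scaling and libraries. Replicates of a group are different mice.

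The members, gene lists and rules were chosen with earlier results of these data known. Genes named are the core class I and class II members, members called in any comparison, the 3 largest differences of KO against WT each way among members with a mean of at least 20, and called genes of the pathway lists; other members named with values (H2-Q1, H2-Q6, H2-Q7, H2-Q10, H2-Ob, H2-M3 in the fraction comparison) and single marker or pathway genes that were not called were chosen after their values were seen.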

Additional observations from a re-analysis of the deposited data

How the results depend on the processing

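Between fractions over both genotypes, 1 member was called, H2-T24, beside 956 genes in all. The count was also 1 with a pseudocount of 0.5 or 10, the deposited scaling or median-of-ratios scaling, beside 918 to 968 genes. With the mouse term 3 members were called beside 1819 genes, and without the filter on low values 0 beside 947. Leaving out 1 library at a time gave 0 to 5 called members beside 602 to 1101 genes. Leaving out all 4 libraries of replicate 1, 2 or 3 gave 0 each, with 362, 0 and 238 genes called in all. Those runs were added after the data had been seen. The fit with a term for each mouse (for KO against WT, for each replicate number) changed no other count of called members. Those of the other 5 comparisons stayed at 0 in every alternative run. The median of class II minus that of class I was 1.41 and stayed positive in 20 of 20 alternatives (0.716 to 2.11). Members whose 6 KO and 6 WT libraries lay apart numbered 0 (background 0.302%), but 1 with the deposited scaling (Tapbp, background 0.248%). With libraries left out, which leaves fewer that could overlap, they numbered 0 to 2. These were H2-T10 without WT low-fat replicate 2 and H2-T22 without KO high-fat replicate 1. Without all libraries of replicate 1, 2 or 3 they were H2-T22, H2-T10 with Psmb9, and H2-Q7 with H2-Q6, in that order. The share over all genes was not counted in those runs.

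Some log2 differences that were not called changed sign. For Tap1 the log2 difference between fractions was -0.0161 without the filter and -0.0398 to 0.059 with libraries left out, and for Psmb9 it was 0.000215 with the deposited scaling. With libraries left out it was -0.189 to 0.00419 for H2-K1, -0.151 to 0.00552 for H2-D1, -0.188 to 0.0231 for Psmb8, -0.11 to 0.015 for Psmb9 and -0.0301 to 0.371 for Nlrc5. For KO against WT in low-fat, leaving out libraries gave -1.05 to 0.297 for H2-Ab1 and -0.974 to 0.127 for H2-DMa. In high-fat it gave -0.74 to 0.00196 for H2-Ab1, -0.684 to 0.432 for H2-DMa and -0.57 to 0.0181 for H2-M3. The cause of these changes was not tested. Each group has 3 mice, and H2-Ob lies near the 3-read floor.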

Other observations

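The MHC region also holds many genes without the H2 prefix, and 33 of a list of such neighbours were tested. Between high-fat and low-fat libraries limma called 4 of them, all higher, where 5.77% of all genes tested were called. Tnxb, an extracellular matrix protein, rose by 1.55 on the log2 scale (SE 0.185, limma adjusted p = 0.00285) and was at 34 to 60 reads per 20 M in low-fat and 111 to 217 in high-fat libraries, without overlap. Notch4, a receptor of endothelial cells, rose by 1.38 (SE 0.259, limma adjusted p = 0.0106), from 23 to 57 reads per 20 M in low-fat to 63 to 199 in high-fat libraries, again without overlap. After rescaling, 4.4% of all genes tested had all 6 high-fat libraries above all 6 low-fat ones. Aif1, a macrophage marker, rose by 2.03 (SE 0.456, limma adjusted p = 0.0233), and Ddah2 by 1.46 (SE 0.366, limma adjusted p = 0.0401). The median over these 33 neighbours was 0 on the log2 scale. The complement genes C4b (-0.12), Cfb (-0.22) and C2 (-0.31) were not called without the mouse term. With that term C2 (limma adjusted p = 0.032) and Brd2 (-0.16, limma adjusted p = 0.0466) fell. H2-Ke6, a member only by its prefix, encodes a metabolic dehydrogenase, was at 1236 to 1548 reads per 20 M over all libraries and had a log2 difference of -0.07 (SE 0.066, limma adjusted p = 0.606).

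Of the 10 members that were not tested and not at 0 throughout, the highest value was 17 reads per 20 M (H2-DMb2 in KO low-fat replicate 2). H2-Oa, the partner chain of H2-Ob, was listed at 0 in all 3 KO high-fat libraries and did not exceed 3 in any library.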
